A study of Arabidopsis thaliana with 10 samples.

Results

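The genes described here are 325 genes of Arabidopsis thaliana whose messenger RNA came almost wholly from the mother in balanced endosperm. They were chosen by the authors' pooled balanced values: at least 100 reads assigned to a parental allele, of which 10% or less were paternal. Of 37333 genes in the allele tables, 8611 reached 100 balanced reads, so the members are 3.77% of the genes that could have been chosen. Over those 8611 genes the median paternal share in balanced endosperm was 33.9%. The balanced shares of the members are therefore a description of how they were picked, and are not tested.

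The series measured polyA RNA of hand-dissected endosperm in 2 crosses in which a Ler mother received pollen of a tetraploid (4N) Col father. In viable paternal excess the father carried the nrpd1 mutation, which affects the catalytic core of RNA polymerase IV, whereas in lethal paternal excess the father was wild type. Each group held 3 replicates, given as 5 samples because replicates 1 and 2 were sequenced in 2 parts, and endosperm of seeds from several plants was pooled for a library. The sample labels give 7 days after pollination, with 8 days for 1 part of lethal replicate 1, whereas the text of the series gives 6 days. Balanced endosperm entered as the authors' values pooled over 5 replicates of other series, so it differs from both crosses in series, batch and ploidy at once. Ler was the mother and Col the father in all these crosses, so the parent of origin of an allele and its accession cannot be told apart. The labels describe the libraries as endosperm, but nothing in them says that replicates came from separate plantings, so the p-values reflect only how far these libraries vary.

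Endosperm is the nutritive tissue of the seed and forms from a central cell with a pair of maternal genome copies after fertilisation by 1 sperm. Imprinted genes are expressed there mainly from the maternal or mainly from the paternal copy, because the parental genomes carry different DNA methylation and Polycomb marks. The seed coat, which surrounds the endosperm, is purely maternal tissue, so RNA of seed coat cells in a dissected sample also reads as maternal. RNA polymerase IV makes the small RNA precursors of RNA-directed DNA methylation. With a diploid father the endosperm holds 2 maternal copies and 1 paternal copy of the genome. A 4N father brings the paternal side to 2 copies as well. A gene at 10% paternal in balanced endosperm would by arithmetic read 18.2% at equal copy number if every copy kept its output.

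Allele reads in genes numbered 5689186 to 6680370 in the viable libraries, 7351445 to 7976585 in the lethal libraries and 11887517 in the balanced pool. Paternal reads made up 51.6% to 53.0% of all gene reads in viable, 51.1% to 52.4% in lethal and 35.8% in balanced endosperm. Members took 1.64% to 2.20% of the gene reads in viable, 1.94% to 2.30% in lethal and 2.95% in balanced endosperm. The mutated gene itself, NRPD1 (AT1G63020), is no member; 33.5%, 30.3% and 46.2% of its reads were paternal in the viable replicates, against 57.7%, 58.2% and 49.6% in the lethal replicates. Paternal reads were thus lower in every viable than in every lethal replicate but not absent, and the labels do not say which part of the gene the mutation affects. In the balanced pool 62.4% of 569 NRPD1 reads were paternal.

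Most members stayed strongly maternal in paternal excess. A share is given here for the 263 members (80.9%) with at least 10 reads in each of the 6 libraries. Their median paternal share was 2.13%, 2.74% and 0.179% in viable replicates 1, 2 and 3, and 1.32%, 2.98% and 0.653% in lethal replicates 1, 2 and 3, against 1.44% in the balanced pool. By contrast, the median of all 7816 genes with the same reads and at least 100 balanced reads lay between 49.7% and 51.3% in every library. The upper quartile of the members was 11.7% to 16.2% in viable and 10.9% to 14.8% in lethal libraries. That is above the 10% at which they had been cut in balanced endosperm. It is below the 18.2% that equal copy number would give a gene at that limit. Single members reached 81.1% in viable and 76.4% in lethal libraries.

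**Figure D1:**
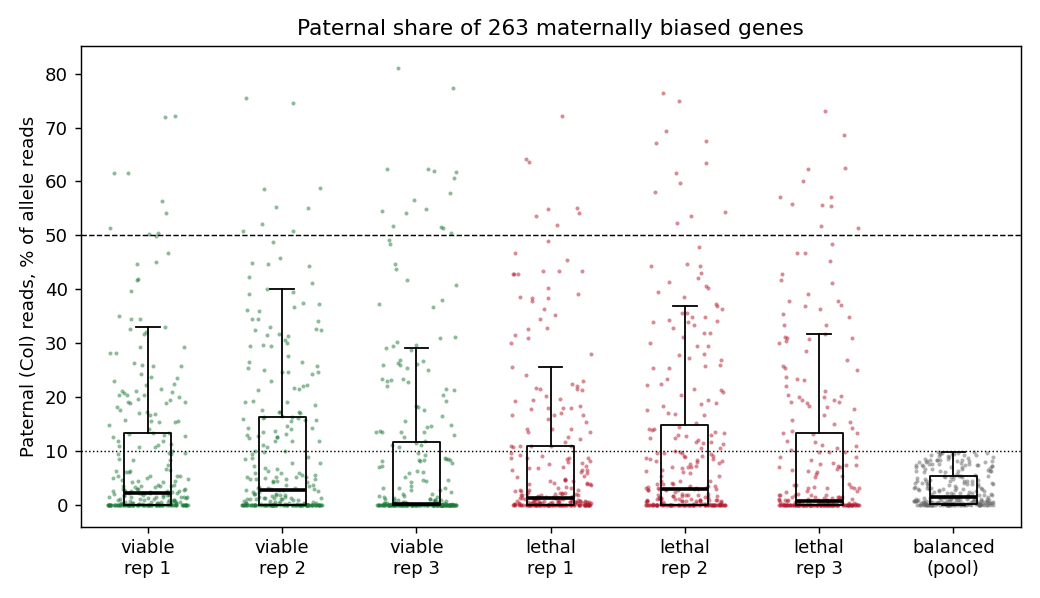
Paternal (Col) share in percent of allele reads on the y axis for the 263 members with at least 10 reads in every library, in 3 viable and 3 lethal replicates and the balanced pool. Points are genes, boxes the quartiles with the median as a thick line, whiskers reach 1.5 times the box height, the dotted line is 10% and the dashed line 50%; medians stay under 3% in all 6 libraries while the highest genes pass 70%.

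Tested against equal parental reads, 249 of the 307 members with at least 60 reads over the 6 libraries were maternally biased in viable and 245 in lethal endosperm at an adjusted p under 0.05 (edgeR's quasi-likelihood test on the allele counts, Benjamini-Hochberg adjustment over 12731 genes). Among all genes tested, 7.64% were maternally biased in viable and 8.94% in lethal endosperm. The members were chosen for low balanced paternal shares, and equal copy number alone would leave each at 18.2% or less. Maternal calls against equality were therefore likely for them from the choice, and the gap to all genes is given as a description. All these crosses had a Ler mother and a Col father, so the calls do not separate parent of origin from accession. In both crosses 230 members were called maternal. Paternal bias was called for 3 members in viable and 5 in lethal endosperm, where the shares of all genes were 10.6% and 11.2%. The 3 in viable endosperm were HEXO3, AT1G69630 and AT5G38197, and lethal endosperm added AT3G02700 and ENODL1. The median log2 ratio of paternal to maternal reads over the members was -5.29 in viable and -5.20 in lethal endosperm, against 0.04 and 0.03 over all genes tested.

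The 263 members fell along a range. Of these, 140 (53.2%) had 10% or fewer paternal reads in each of the 6 libraries, and 54 of them 1% or fewer. Another 23 (8.75%) lay above 18.2%, the level that equal copy number alone would give a gene at the limit, in each of the 6 libraries, and 100 (38.0%) lay between or varied between libraries. The lower the balanced share, the lower the later ones: of 118 members at 1% or less in balanced endosperm, 102 stayed at 10% or less in every library, and of 69 members above 5%, 12 did. Medians were 0.318% in viable and 0.425% in lethal endosperm for the first of these sets, and 14.6% in viable and 15.4% in lethal endosperm for the second.

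Of the 10 members with the most balanced reads, 6 had at most 1.45% paternal reads in every library, among them JLO, described below. The other 4 were AT2G21130, NRS/ER, LTP3 and AT1G62480, and the first of these, with the most balanced reads of all, is described with the comparison of the crosses. GILT (AT4G12960), which encodes a thiol reductase of the lysosomal type, had 0.105%, 0.044% and 0.0925% paternal reads in the viable replicates and 0.0718%, 0.122% and 0.122% in the lethal replicates, against 0.0704% of 29812 balanced reads (95% Clopper-Pearson interval 0.0436% to 0.108%). Viable and lethal replicates overlapped, and all 6 stayed close to the balanced pool. LTP4 (AT5G59310), a lipid transfer protein of the cell surface, had 0.122%, 0.173% and 0.218% in viable and 0.144%, 0.0275% and 0.108% in lethal replicates, against 0.148% in the balanced pool. AT1G23200 stayed between 0.0457% and 0.252% in viable and between 0.096% and 0.295% in lethal replicates, against 0.292% in balanced endosperm. The neighbouring AT1G62060 and AT1G62070 never passed 0.179% in viable or 0.164% in lethal replicates, against 0.66% and 0.233% in the balanced pool. These 2 genes lie side by side on chromosome 1 (22941569 to 22944289), and the sources used here do not say how reads that match both were counted.

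NRS/ER, LTP3 and AT1G62480 had higher paternal shares in some or all libraries. NRS/ER (AT1G63000), an enzyme of UDP-rhamnose synthesis and so of pectin and mucilage sugars, had 15.5%, 19.3% and 14.4% paternal reads in viable and 12.2%, 19.5% and 16.6% in lethal replicates, against 8.37% of 8032 balanced reads. All 6 replicates were above the balanced pool, and the groups overlapped. At equal copy number its share would rise by arithmetic even if every copy kept its output, and this part was not separated. LTP3 (AT5G59320), next to LTP4 on chromosome 5 (23928954 to 23929816), varied from 1.5% to 8.67% in viable and from 0.42% to 18.8% in lethal replicates, against 0.14% in the balanced pool. Its highest value, like the 11.6% of AT1G62480 whose other 5 replicates had 0.653% or less, came from lethal replicate 2. That replicate gave the highest lethal share for 45.7% of the members with a single highest lethal replicate, against 36.6% over all genes.

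Seed coat genes were among the members. Of 24 seed coat genes listed as markers, 14 had 100 balanced reads, and 10 of these were members. The other 4 were not strictly maternal in balanced endosperm: TT7 was at 67.8%, SBT1.7 at 51.2% of 20976 reads, GL2 at 16.2% and PMEI6 at 14.2% paternal. With reads summed over replicates, TT7 had 6.27% in viable and 3.72% in lethal endosperm. SBT1.7 had 25.4% and 22.3%, and GL2 2.33% and 1.68%, all below their balanced values. PMEI6 had 6.1% in viable and 15.2% in lethal endosperm. Most of the 10 members on the list make or regulate the flavonoid tannins of the seed coat. BAN (anthocyanidin reductase) had no paternal read in any library, at 0 of 1756 reads in viable and 0 of 2372 reads in lethal endosperm, which allows shares of up to 0.171% and 0.126%. LDOX, the enzyme before it, had none of 316 reads in viable and none of 539 in lethal endosperm, which allows up to 0.949% and 0.557%. TT8, a bHLH regulator of this pathway, had no paternal read in 5 libraries and 0.752% in lethal replicate 2. TT4 (chalcone synthase, the entry enzyme) had 0%, 0.238% and 0% in viable and 0.162%, 0.638% and 0.208% in lethal replicates. DFR (dihydroflavonol reductase) had 5.31%, 2.90% and 1.10% in viable and 0.992%, 6.85% and 3.59% in lethal replicates, so its groups overlapped. TT5 (chalcone isomerase) had 17.3%, 17.2% and 25.9% in viable and 13.5%, 21.0% and 15.3% in lethal replicates, against 1.98% of 353 balanced reads. All 6 values of TT5 lay above the balanced pool, and its groups overlapped too, so the flavonoid genes ran from 0% to 25.9%.

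Members of the same list that act in the mucilage and cell wall of the seed coat, or in its identity, also ran from near 0% to well above 10%. STK, a MADS-box regulator of ovule and seed coat identity, had no paternal read in 5 libraries and 5.88% of 68 reads in lethal replicate 2. The peroxidase gene PER36 (AT3G50990) had none in 5 libraries and 1.54% in viable replicate 2. KNAT7, a homeobox regulator of secondary walls, had 5.33%, 1.37% and 0% in viable and 0%, 0% and 0.725% in lethal replicates. MUM2, a beta-galactosidase of mucilage, had 20.0%, 30.5% and 12.9% in viable and 21.4%, 28.0% and 23.2% in lethal replicates, against 1.08% of 463 balanced reads. All 6 libraries lay above the balanced pool for MUM2, and viable and lethal libraries overlapped.

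The summed level of the 10 member seed coat genes was 326 to 425 CPM in viable libraries and 306 to 766 CPM in lethal libraries, where CPM are allele reads scaled to library size. Over all 24 listed genes the sum ran from 955 to 1631 CPM in viable and from 1366 to 1546 CPM in lethal libraries. Much of that sum was SBT1.7, a subtilisin protease of mucilage release, without which it ran from 432 to 524 CPM in viable and from 405 to 857 CPM in lethal libraries. The 8 endosperm markers summed to 1554 to 2106 CPM in viable and 618 to 1731 CPM in lethal libraries, and the 16 embryo markers to 70.3 to 105 CPM in viable and 52.6 to 192 CPM in lethal libraries. TT2, TT12, AHA10 and SHP2, further genes of that list, were at 0 allele reads in balanced endosperm and in every library. Beside these, the 4 endosperm markers with 100 balanced reads had balanced paternal shares of 36.6% to 47.2% and the 5 embryo markers 14.6% to 36.8%, and none was a member. The part of seed coat RNA in the maternal shares was not tested. Of the 10 member seed coat genes, the authors' deposited table called 3 lower than balanced in both crosses and the other 7 neither higher nor lower. In the authors' deposited table BAN was at 0.353 times its balanced level in viable and 0.436 times in lethal endosperm (q = 0.00048 and 0.0285), LDOX at 0.292 and 0.343 times (q = 0.00048 and 0.00286), and PER36 at 0.357 and 0.122 times (q = 0.0164 and 0.00035). The 7 not called ran from 0.708 times (TT4) to 1.47 times (MUM2) the balanced level in viable and from 1.06 times (TT4) to 1.73 times (TT5) in lethal endosperm in the authors' deposited table. In bulk samples of this kind fewer cells of a type and less RNA per cell cannot be told apart.

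None of the genes on a short fixed list of maternally expressed imprinted genes was a member. Imprinted genes outside that list were not checked. Of 10 listed, 2 had 100 balanced reads, namely ALN at 23.6% and FH5 at 42.7% paternal. FIS2, a Polycomb gene of the central cell, had 3.12% paternal of 32 balanced reads and so missed the read minimum. It had 0.709% in viable and 1.68% in lethal endosperm when reads were summed over replicates. FWA, a homeodomain gene kept silent on the paternal side by DNA methylation, had 2 balanced reads but 31.4 CPM in viable and 78.0 CPM in lethal endosperm, with summed paternal shares of 0.164% and 0%. BMI1C had 2 balanced reads and summed shares of 0.855% in viable and 0.298% in lethal endosperm. The read minimum therefore kept out these 3 strongly maternal genes. Other listed genes were not maternal in the crosses. Summed paternal shares in viable and lethal endosperm were 51.9% and 52.8% for ALN and 56.7% and 53.3% for FH5. HDG8, at 29.4% of 17 balanced reads, had 52.6% and 55.4%. MEA, MPC, AGL36 and AGL28 had mean levels of 0.643 CPM or less in both crosses.

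Gene families, picked after their values were seen, held members in differing shares. GATL genes had 2 members of 4 with 100 balanced reads, UMAMIT transporters 3 of 6, cellulose synthases 2 of 7 and TBL genes 2 of 10, and 3 further families are given in more detail. Of 8 MADS-box genes of ovule and carpel identity (SEP1 to SEP4, AG, STK, SHP1 and SHP2), 4 had 100 balanced reads, and all 4 were members: SEP1, SEP3, AG and STK. AG had no paternal read in any library, at 8 to 22 reads in viable and 17 to 51 reads in lethal replicates. SEP3 had at most 0.813% in viable and 1.28% in lethal replicates. Among 21 KCS genes, which encode 3-ketoacyl-CoA synthases of very-long-chain fatty acids for wax and cuticle, 10 had 100 balanced reads and 6 were members, the others lying at 12.2% to 59.0%. KCS8 stayed at 1.16% or less in viable and 1.54% or less in lethal replicates, whereas KCS10 varied from 0% to 18.6% in viable and from 0.704% to 18% in lethal replicates.

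Sadhu elements, noncoding retroposons held members with few paternal reads and non-members with many. Of 16 in the tables, 7 had 100 balanced reads and 4 were members. SADHU6-1 (AT3G02515) had 0%, 0.32% and 1.49% paternal reads in viable and 0.581%, 1.04% and 0% in lethal replicates, against 0.0675% of 2962 balanced reads. SADHU5-2 had no paternal read in any library, at 122 reads in viable and 284 in lethal endosperm, which allows up to 2.46% and 1.06%. SADHU1-3 had 16.7%, 4.85% and 6.14% in viable and 3.96%, 3.12% and 3.12% in lethal replicates, with every viable value above the lethal ones. The other 3 Sadhu elements with 100 balanced reads ran from 27.8% to 100% paternal in balanced endosperm. Over all members, the reference table lists 306 as protein-coding, 9 as pseudogenes, 2 as transcribed pseudogenes, 7 as long noncoding RNAs and 1 as another noncoding RNA.

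A smaller set of members was read as much or more from the father as from the mother in paternal excess. HEXO3 (AT1G65590), a beta-hexosaminidase that trims sugars from glycoproteins, had 71.9%, 74.5% and 81.1% paternal reads in viable and 64.1%, 67.5% and 73.0% in lethal replicates, against 2.54% of 118 balanced reads (interval 0.527% to 7.25%). AT1G69630 had 72.2%, 75.5% and 61.8% in viable and 72.1%, 76.4% and 62.5% in lethal replicates, against 8.09% of 606 balanced reads. All 6 libraries lay far above the balanced pool for both genes, with viable and lethal values overlapping. HEXO3 was higher in viable endosperm in 3 of 3 same-numbered pairs, with a log2 difference of 0.55 ± 0.27 (SE, edgeR adjusted p = 0.972) that was not called with replicate number as a block either (0.56). AT5G38197 had 56.3%, 55.3% and 62.3% in viable and 63.6%, 69.4% and 68.6% in lethal replicates, against 9.39% in balanced endosperm. Every lethal value was above every viable value, with a log2 difference of -0.57 ± 0.15 (SE) that edgeR's quasi-likelihood test did not call (adjusted p = 0.529).

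ENODL1 (AT5G53870), a cell surface protein of the early nodulin-like family, had 49.9%, 52.1% and 60.6% paternal reads in viable and 54.2%, 61.6% and 62.3% in lethal replicates, against 6.25% of 320 balanced reads. AT3G02700 averaged 52.8% ± 3.18 in viable and 59.3% ± 6.89 in lethal endosperm (SD, n = 3 each), against 4.03% of 2682 balanced reads. AT1G49640 had no paternal read among 194 balanced reads (upper bound 1.88%), but averaged 57.3% ± 5.09 in viable and 53.1% ± 6.76 in lethal endosperm (SD, n = 3 each). AT3G22810 averaged 47.6% ± 7.78 in viable and 50% ± 3.17 in lethal endosperm (SD, n = 3 each), against 7.39% in the balanced pool. In all, 7 of the 263 members had at least 40% in all 6 libraries, and 3 of them, HEXO3, AT1G69630 and AT5G38197, passed 50% in all 6.

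Lower read numbers made some of the highest means uncertain. AT5G37070 had 31.7% to 54.8% in viable and 49% to 75% in lethal replicates, against 6.29% of 175 balanced reads. ABCG20, a transporter of the suberin pathway, had 61.5%, 58.6% and 43.8% in viable and 52.0%, 35.6% and 39.1% in lethal replicates, with 26 reads in viable replicate 1. AT5G61370 averaged 48.7% ± 27.3 in viable and 16.6% ± 15.2 in lethal endosperm (SD, n = 3 each), and its groups overlapped. AT5G52280, just inside the 10% limit at 9.82% of 112 balanced reads, had 41.7%, 42.2% and 57.9% in viable and 43.4%, 54.4% and 0% in lethal replicates. For each of these 4 genes viable and lethal replicates overlapped.

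**Figure D2:**
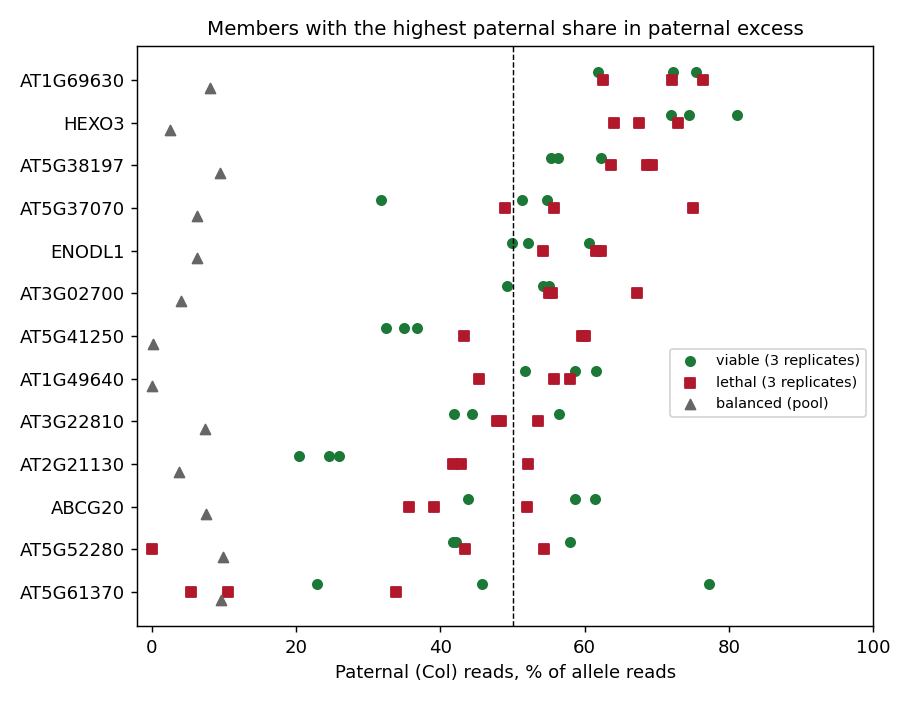
Paternal (Col) share in percent of allele reads on the x axis for the members with the highest mean share in viable or lethal endosperm, 1 row per gene. Circles are viable replicates, squares lethal replicates and triangles the balanced pool, with the dashed line at 50%; all triangles lie at 10% or less, and circles and squares overlap in range in most rows but not for AT2G21130, AT5G41250 and AT5G38197, and they barely meet for AT3G02700.

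Between the crosses, the paternal shares of most members lay close together in percentage points. The means differed by 5 percentage points or less for 197 of the 263 members. Viable endosperm was over 10 points higher for 16 and over 10 points lower for 17. For the 140 members at 10% or less in every library, a gap over 10 points was not possible. These counts were not made over all genes, so they show nothing particular to the members. Viable libraries lay above every lethal library for 15 members (5.70%) and below for 18 (6.84%), against 6.56% and 4.96% of all 10180 genes with the same reads. The edgeR test of the difference called 1 of 307 members lower in viable endosperm and 0 higher at an adjusted p under 0.05, against 0.0236% and 0.0393% of all 12731 genes tested. At an unadjusted p under 0.05 in the edgeR test there were 40 members (13.0%), against 4.19% of all genes. Some of these rest on few paternal reads. AT1G20500, for example, had shares of 0% to 1.33% in viable and 0% to 0.33% in lethal replicates (edgeR unadjusted p = 0.0214). At the adjusted threshold limma called no member and no other gene.

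The called member was AT2G21130, which also had the most balanced reads of all members. It lies on chromosome 2 at 9055398 to 9056481 (TAIR10), and the reference table gives it no symbol. Paternal reads were 20.4%, 24.6% and 25.9% in the viable replicates, against 42.8%, 52.2% and 41.7% in the lethal replicates, and 3.83% of 63740 reads in the balanced pool. Every lethal replicate lay above every viable one, and every viable one above the balanced pool. The log2 difference of the paternal to maternal ratio was -1.44 ± 0.18 (SE, edgeR adjusted p = 0.0244). With replicate number as a block it was -1.44 ± 0.14 (edgeR adjusted p = 0.0415). The difference was tested on 5615 reads in viable replicate 1 and 5992 in lethal replicate 2, for example, so counting error is small beside the spread. The call was lost without any 1 of lethal replicates 1, 2 and 3 and viable replicates 1 and 2 (edgeR adjusted p = 0.059 to 0.143), with the log2 difference between -1.25 and -1.55. With limma its adjusted p was 0.876.

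Members that came next, chosen after their values were seen, went in both directions. TIF3C2 (AT3G22860), a subunit of translation initiation factor eIF3, had 24.2%, 22.9% and 26.8% paternal reads in viable replicates, against 8.06%, 5.4% and 10.2% in lethal replicates and 3.32% in the balanced pool. The groups did not overlap, and the log2 difference was 2.02 ± 0.30 (SE, edgeR adjusted p = 0.0613). MYB115 (AT5G40360), a transcription factor of the MYB family, had 50.3%, 50.8% and 21.3% in viable replicates, against 3.85%, 4.02% and 0% in lethal replicates and 2.16% in the balanced pool. Its log2 difference was 4.58 ± 0.82 (SE, edgeR adjusted p = 0.139). AT5G41250 had 35%, 32.5% and 36.7% in viable replicates, against 43.3%, 59.7% and 60% in lethal replicates and 0.171% of 1168 balanced reads, with a log2 difference of -1.17 ± 0.23 (SE, edgeR adjusted p = 0.228). Without viable replicate 3, TIF3C2 and MYB115 were called (log2 differences 1.97 and 5.22), and without lethal replicate 1, AT5G41250 was (-1.49).

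**Figure D3:**
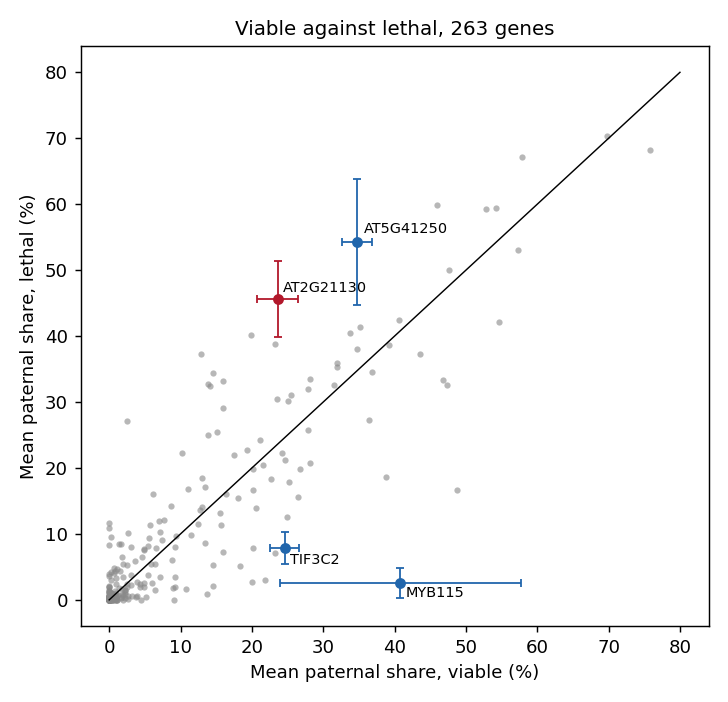
Mean paternal share in percent over 3 viable replicates (x axis) against 3 lethal replicates (y axis) for the 263 members with at least 10 reads in every library, with the line of equality. Named points carry the SD over replicates as bars; AT2G21130 in red was called by the edgeR test, lying at 23.6% in viable and 45.6% in lethal endosperm, and the 3 in blue were not.

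In total allele reads no member passed the unpaired test between the crosses. The edgeR test called 0 of 303 members and 0% of all 12671 genes at an adjusted p under 0.05, and 19 members (6.27%) and 865 genes (6.83%) had an unadjusted p under 0.05. DESeq2 called 2 members higher, AT5G66985 and GolS4, out of 199 genes in all. With replicate number as a block, edgeR called AT5G66985 higher and AT5G47350 lower in viable endosperm, out of 118 genes in all. AT5G66985 had 5.31, 4.86 and 31.7 CPM in viable replicates, against 1.09, 0.521 and 1.97 CPM in lethal replicates, so the groups did not overlap. AT5G47350 had 55.7, 35.6 and 67.2 CPM in viable replicates, against 135, 80.7 and 219 CPM in lethal replicates. GolS4, a galactinol synthase, had 8.05, 2.28 and 9.84 CPM in viable replicates, against 0.603, 0.13 and 0 CPM in lethal replicates, on 50, 16 and 55 reads in viable and 5, 1 and 0 reads in lethal replicates. The median log2 difference of the members was -0.20, against -0.05 over all genes tested.

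The authors' deposited table of viable against lethal endosperm, which rests on FPKM (fragments per kilobase of gene, scaled to library size), called 5 of 321 members higher (1.56%) and 2 lower (0.623%) at their q under 0.05, against 1.74% and 0.769% of all genes they tested. In the authors' deposited table JLO (AT4G00220), a lateral organ boundaries transcription factor, was 2.60-fold higher in viable than in lethal endosperm (q = 0.0332). JLO had 55.5, 42 and 65.3 CPM of allele reads in viable replicates, against 19.7, 11.3 and 31.3 CPM in lethal replicates, so the groups did not overlap. The edgeR test gave it a log2 difference of 1.39 ± 0.43 (SE, adjusted p = 0.490). In the authors' deposited table XTH9, a xyloglucan-modifying cell wall enzyme, was at 0.324 times its lethal level in viable endosperm (q = 0.0314) and ENODL1 at 0.354 times (q = 0.0398). For ENODL1 the allele reads were 235, 213 and 155 CPM in viable replicates, against 245, 1171 and 370 CPM in lethal replicates, of which replicate 2 stood far above the others, and edgeR gave a log2 difference of -1.57 ± 0.57 (SE, adjusted p = 0.602). The other members called there were AT5G66985, AT1G03103, AT3G01240 and WRKY49, all higher in viable endosperm.

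Against balanced endosperm, members were more often lower than higher. The balanced reads that chose the members enter this contrast, so the authors' calls are given as a description. The read minimum favours lower values in the crosses, and the shares over all genes include genes below that minimum. In viable endosperm 23 of 322 members were higher and 52 lower at the authors' q under 0.05 (7.14% and 16.1%), where 14.2% and 12.9% of all genes were. In lethal endosperm 31 were higher and 59 lower (9.63% and 18.3%), where 17.5% and 16.6% of all genes were. Of the members called lower, 16 in viable and 25 in lethal endosperm had under 10 reads in some library. Of those called higher, 1 in viable and 1 in lethal endosperm did. The median log2 ratio of the members to balanced was -0.25 in viable and -0.07 in lethal endosperm, against 0.04 and 0.09 over all genes. Both comparisons share the balanced samples, so calls in both are not independent. Called in both crosses were 17 members higher and 41 lower. That count was not made over all genes, so it shows nothing particular to the members.

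The ratio to balanced endosperm is given next by the paternal share of the members. The 23 members above 18.2% in all 6 libraries had a median log2 ratio of 0.67 in viable and 0.88 in lethal endosperm, with 8 called higher in each and 2 and 3 called lower. The 140 members that stayed at 10% or less had medians of -0.17 and 0.13, with 10 called higher and 18 lower in viable and 14 each way in lethal endosperm. Members with under 10 reads in some library had medians of -1.48 in viable and -2.11 in lethal endosperm, and 16 of 59 were called lower in viable and 25 of 59 in lethal endosperm. These last passed the read minimum in balanced endosperm and not later, which favours lower values by construction.

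**Figure D4:**
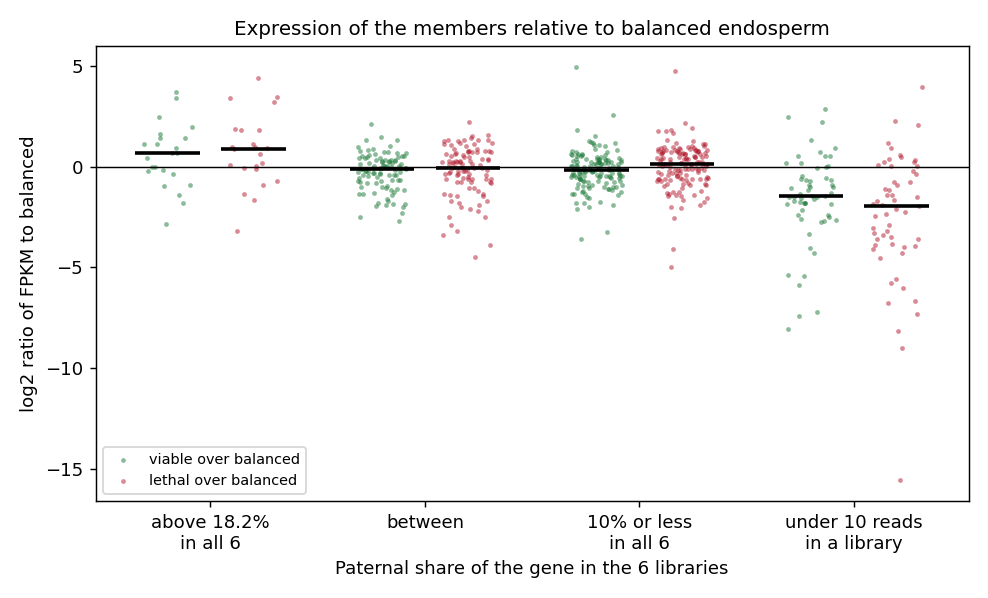
Log2 ratio of the authors' FPKM to balanced endosperm on the y axis for members they tested, grouped on the x axis by the paternal share of the gene in the 6 libraries; WRKY49 and AT4G10260, listed at 0 in lethal endosperm, have no lethal point. Points are genes (viable left, lethal right) and black bars medians, which lie above 0 for the 23 members over 18.2% and well below 0 for members with few reads.

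The largest ratios above balanced endosperm belonged to genes with low and with high paternal shares. In the authors' deposited table AT3G26140 had 168 FPKM in viable and 143 FPKM in lethal endosperm, against 5.42 FPKM in balanced endosperm, ratios of 31.1 and 26.4. Its paternal share was 3.38%, 1.18% and 1.02% in viable and 1.59%, 2.65% and 0.89% in lethal replicates, against 6.17% in balanced endosperm, so the added reads were nearly all maternal. RBL2 (AT1G63120), a rhomboid-like membrane protein, had 137 FPKM in viable and 218 FPKM in lethal endosperm, against 10.5 FPKM in balanced endosperm in the authors' deposited table. Its paternal share was 32.1%, 32.5% and 31.2% in viable and 34.5%, 36.3% and 37.0% in lethal replicates, against 8.00% of 475 balanced reads. Every lethal value was above every viable one, with a log2 difference of -0.25 ± 0.11 (SE) that edgeR did not call (adjusted p = 0.972). ENODL1 and HEXO3 were 3.83 and 10.7 times their balanced level in viable endosperm and 10.9 and 10.5 times in lethal endosperm in the authors' deposited table. ABCG31, another membrane transporter, was at 5.56 times the balanced level in viable and 15.7 times in lethal endosperm in the authors' deposited table, against 0.195 FPKM in balanced endosperm.

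Among the lowest ratios, JLO was at 24.3 FPKM in viable and 9.32 FPKM in lethal endosperm, against 295 FPKM in balanced endosperm in the authors' deposited table (q = 0.00048 and 0.00035). Its paternal share stayed at 1.45% or less in viable and 1.23% or less in lethal replicates, against 1.01% of 11098 balanced reads. AT5G66985 was at 7.34 FPKM in viable, against 320 FPKM in balanced endosperm, and at 1.13 FPKM in lethal, against 318 FPKM in balanced endosperm, in the authors' deposited table. GLP6, a germin-like cell wall protein, was at 0.00873 FPKM in lethal endosperm, against 427 FPKM in balanced endosperm, yet the authors' deposited table gave q = 0.263 there and 0.00048 for viable endosperm (2.52 FPKM). The lowest lethal to balanced ratios also included AT2G15220, AT4G02910 and AT4G14380, each under 0.07 FPKM in lethal endosperm and not called there in the authors' deposited table (q = 0.164 to 0.463). AT4G10260 and WRKY49 were listed at 0 FPKM in lethal endosperm with q = 0.00035 in the authors' deposited table, and had no allele read in any lethal library.

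Multiplying the authors' FPKM by the maternal and paternal shares splits a gene's level by parent, as a description without a test. AT2G21130 came to 146 maternal and 45.2 paternal FPKM in viable and 81.3 and 68.0 FPKM in lethal endosperm, against 1334 and 53.1 FPKM in balanced endosperm. The maternal product was lower in both crosses and the paternal product stayed in a similar range. Its total was 0.138 times balanced in viable (q = 0.0501) and 0.108 times in lethal endosperm (q = 0.00035) in the authors' deposited table. In RBL2 both products were higher, with 93.5 maternal and 43.9 paternal FPKM in viable and 140 and 78.3 FPKM in lethal endosperm, against 9.63 and 0.838 FPKM in balanced endosperm. HEXO3 had 2.16 maternal and 6.78 paternal FPKM in viable and 2.78 and 5.96 FPKM in lethal endosperm, against 0.813 and 0.0212 FPKM in balanced endosperm. MYB115 had 2.54 maternal and 1.75 paternal FPKM in viable and 1.71 and 0.0462 FPKM in lethal endosperm, against 13 and 0.286 FPKM in balanced endosperm. AT5G41250 had 47.9 maternal and 25.5 paternal FPKM in viable and 54.3 and 64.6 FPKM in lethal endosperm, against 13.1 and 0.0224 FPKM in balanced endosperm. In AT3G02700 the total was similar in all groups, with 23.6 maternal and 26.4 paternal FPKM in viable and 24.7 and 36 FPKM in lethal endosperm, against 55.6 and 2.33 FPKM in balanced endosperm. In members above 18.2% in all 6 libraries a higher paternal product largely follows from how they were chosen. Their maternal product was lower than in balanced endosperm for 13 of 23 in each cross, and that of the members staying at 10% or less for 84 of 140 in viable and 62 of 140 in lethal endosperm.

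**Figure D5:**
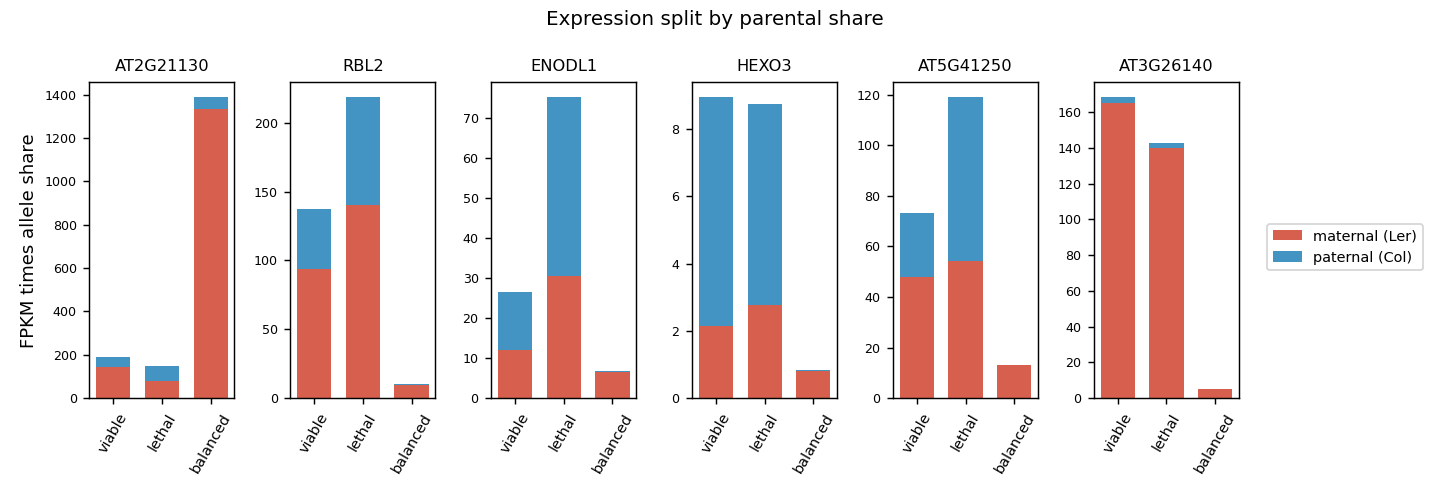
FPKM of the authors' comparisons with balanced endosperm, split by the mean paternal share, for 6 named members in viable, lethal and balanced endosperm; each panel has its own y axis from 0. Bars show the maternal part below and the paternal part above, with no error since each FPKM is 1 value per group; the maternal part of AT2G21130 is 146 in viable, 81.3 in lethal and 1334 in balanced endosperm, and its paternal part 45.2 to 68.0 FPKM in all.

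Near the limit, the 3 members just inside 10% were AT5G52280, scpl10 (9.84% of 122 balanced reads) and AT5G26700 (9.85% of 132 balanced reads), and scpl10 and AT5G26700 had under 10 reads in several libraries. Just outside lay BEL10 at 10.0%, sks13 at 10.1% and AT1G77960 at 10.2%. BEL10 averaged 26.8% in viable and 30% in lethal endosperm and AT1G77960 32.7% and 29.7%, values within those of the members. The 82 genes between 10% and 15% had medians of 24.8% in viable and 25.9% in lethal endosperm, so the limit cut a continuous range. Of the 62 members without a share in every library, 18 had under 60 reads over the 6 libraries and were not tested, and 6 had under 10. AT1G05450 had no read in any library, AT4G14380 none in viable libraries, and WRKY49 and AT4G10260 none in lethal libraries.

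Members were spread over all 5 chromosomes, with 82 on chromosome 1, 41 on 2, 65 on 3, 56 on 4 and 81 on 5, or 3.10% to 4.25% of the genes with 100 balanced reads on each. Within 20 kb of another member lay 58 members, in 28 runs, of which 1 held more than 2 genes. That count was not made for other genes, so it does not show whether members cluster. Neighbours did not always share a pattern: LTP4 and LTP3 are described above, and RBL2 stood at 8.00% near AT1G63140 at 0% in balanced endosperm. KNAT7 at 0.917% lies beside NRS/ER at 8.37% on chromosome 1 (23337167 to 23344120). AT3G22810 at 7.39% lies near TIF3C2 at 3.32% on chromosome 3 (8068418 to 8093248). Of these the first was near 50% in both crosses. The second was lower in lethal than in viable endosperm without passing the test.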

How the data were processed

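The labels describe polyA RNA of hand-dissected endosperm, and the submitters' processing notes name Trim Galore, FastQC, TopHat, Bowtie, Cuffdiff and the TAIR10 genome without versions. Per the file headers, the authors deposited read counts of the Ler and Col alleles for each gene and replicate. The sources used here do not say how reads were assigned to an allele. For balanced endosperm the authors deposited the counts summed over 5 replicates and the percent of paternal reads, and 10 columns of single balanced replicates were not used. For expression, the authors deposited a single FPKM for each group with a p-value and a q-value, per the file headers. They were scaled per comparison, so FPKM were compared within a table. In the split by parent, balanced values come from the comparison with lethal endosperm. Allele CPM were compared between viable and lethal libraries only. Transposable element tables were not used, and 3 genes were left out and are not reported here.

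Rows that name no gene held 7.25% to 9.67% of the assigned reads and stayed out of totals. Counts were tested with edgeR 4.0.16 in R 4.3.3 (quasi-likelihood F test). Total reads were compared between crosses with TMM scaling and filterByExpr. The paternal to maternal ratio was compared between crosses with library as a block, and against equality within a cross. These ratio tests used library totals without TMM scaling, for genes with at least 60 reads over 6 libraries. P-values were adjusted by Benjamini-Hochberg over all genes tested, and a standard error is the fitted log2 difference divided by the square root of its F statistic. CPM are TMM-scaled. Single shares have Clopper-Pearson 95% intervals and a count of 0 is read as under 3 reads, both covering counting error only. In simulated data the total test recovered 193 of 200 genes changed by 2 on the log2 scale with 15 false calls of 12574. The share test recovered 144 of 200 with 9 of 12565. The simulated starting shares were all 10% or more, and only genes with higher mean reads were changed. Recovery among strictly maternal or little-read members was therefore not measured.

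Same-numbered libraries deviated together over 12671 genes (correlations 0.114, 0.475 and 0.432). Replicate number was therefore also run as a block, among the alternatives. The fits reported for total reads and for the share between crosses did not use these pairs. For replicate 1 the pairing is weak, since viable replicate 1 correlated more with lethal replicate 2 (0.155) than with lethal replicate 1. Alternatives were DESeq2 1.42.0, limma 3.58.1 on log2 ratios with 0.5 added, other read minimums, a replicate block, and each library left out. The members and gene lists were chosen with earlier results of these data known. Genes were named if they were members on the seed coat or maternally expressed lists, the 10 with most balanced reads, the 10 highest mean shares per cross, called members, the 3 on each side of the limit, or the 5 highest and lowest lethal to balanced FPKM ratios. Symbols come from RefSeq (TAIR10.1), in which all 325 members matched, and coordinates are the locus of the deposited tables, which can span overlapping genes, with starts counted from 1. No sequences are given.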

Additional observations from a re-analysis of the deposited data

Results flagged for a closer look

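AT2G21130 is the member whose paternal share differed between the crosses by a test of the difference itself. The log2 difference of the paternal to maternal ratio, viable over lethal, was -1.44 ± 0.18 (SE), with an edgeR adjusted p of 0.0244 that ranged from 1.32e-05 to 0.876 over the alternatives. Paternal reads averaged 23.6% ± 2.89 in viable and 45.6% ± 5.74 in lethal endosperm (SD, n = 3 each), lower in 3 of 3 viable replicates than in any lethal one. Beside this, total reads of the gene were 903, 1042 and 1906 CPM in viable and 608, 780 and 1722 CPM in lethal replicates, where both groups overlapped. Whether the wide difference in level between replicates bears on the share was not tested.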

How the results depend on the processing

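Maternal calls against equality kept their count within 1.5 times under all alternatives run, at 203 to 255 members in viable and 195 to 259 in lethal endosperm. For total reads between the crosses, DESeq2 called 2 members and 199 genes, the replicate block 2 and 118, and no count filter 0 and 81, against 0 and 0 in the fit reported; leaving out a library gave 0 in each case. For the share between crosses, limma called 0 members and 0 genes and no read minimum 7 and 45, against 1 and 8. Leaving out a library gave 0 to 4 members and 0 to 27 genes, the most without viable replicate 3. For the share between crosses the replicate block called 1 member and 6 genes, and the tests against equality were not run with it. At q under 0.01 members higher and lower numbered 11 and 34 in viable and 19 and 39 in lethal endosperm. With at least 50 reads in every replicate, which 161 members had, 91 stayed at 10% or less. With reads summed over replicates 41 members lay above 18.2%. The median share of the members lay between 1.42% and 2.59% in viable and between 1.39% and 2.62% in lethal endosperm with each library left out. The causes of these changes were not tested. Calls are limited by 3 libraries per cross, by low paternal counts in strictly maternal genes, and by crosses that all have a Ler mother.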

Other observations

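Selection in paternal excess in place of balanced endosperm gave an overlapping but not identical set of maternal genes. Of 7532 genes with at least 100 summed reads in each of the 3 groups, 199 had 10% or fewer paternal reads in both crosses, and 160 of these are among the 247 members with such reads. The other 39 had a median balanced share of 19.2%, with 10 above 30%. The 2 highest were TT7 and KCS19, and IRX9 and NRT1.7 were picked from the 10 after their values were seen. TT7, a flavonoid hydroxylase of the seed coat, had 6.27% in viable and 3.72% in lethal endosperm, against 67.8% of 876 balanced reads. KCS19 had 1.17% in viable and 0.484% in lethal endosperm, against 59.0% of 2063 balanced reads. IRX9, a xylan synthesis gene, had 0.599% in viable and 0.405% in lethal endosperm, against 32.6% of 445 balanced reads. The nitrate transporter NRT1.7 had no paternal read in either cross, against 32.6% of 2053 balanced reads. Shares far from the balanced value thus occurred in both directions, higher for some members and lower for some of these 39 genes. The 39 were chosen by low shares in the crosses, and the balanced pool came from other series. Whether these genes changed in parental expression was not tested.

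A stretch of chromosome 1 from BAN to AT1G63540 (22790966 to 23569495) held 14 members among 77 genes with 100 balanced reads, or 18.2%, against 3.79% over the chromosome. It was picked after the members were seen and is not tested. Of the 11 with 10 reads in every library, 8 stayed at 10% or less in all 6. NRPD1 lies in the same stretch but is no member, at 62.4% paternal of 569 balanced reads. Whether its position bears on the members was not tested.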
